A study of Mus musculus with 9 samples.

Results

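Cells held in a paused state by an mTor inhibitor were compared with the same cell lines in Serum culture, genome-wide and in families of genes defined by shared complexes and pathways. The cells were mouse embryonic stem (ES) cells, and the lines were E14, v6.5 and Oct4 GiP. Transcripts were measured by RNA-seq. All cells were at passages 20 to 23 and grew on gelatin for 2 weeks, in Serum, in 2i or in Paused conditions, and each line gave 1 library per condition. The comparison takes the 3 Paused and the 3 Serum libraries, 6 of the 9 libraries in all, paired by line. For the Paused state the medium held the mTor kinase inhibitor INK128, 200 nM over the 2 weeks. The labels name no inhibitor for the Serum cells and give no composition of the medium or of 2i, a name generally given to a blocker of MEK used together with a blocker of GSK3. Every library was made from 250 ng of total RNA with ERCC spike-in RNA added. A line and condition is thus 1 culture here, and the lines are established cells and not embryos. The p-values set the difference between conditions against the spread that remains after condition and line in all 9 libraries, 2i included. That spread is in part shared across genes.

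The mTor kinase works in a pair of complexes that read nutrients and growth factors. Complex 1 promotes protein, lipid and nucleotide synthesis and restrains autophagy and the lysosomal factor TFEB, and complex 2 activates the kinase AKT, which keeps FoxO transcription factors out of the nucleus. In ES cells and blastocysts, inhibition of mTor is known to slow growth while pluripotency is retained, a state likened to embryonic diapause.

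The labels were checked against markers before the comparison. All 12 pluripotent stem cell markers examined passed the filter, and their summed level ran from 5124 to 6105 FPKM in Serum and from 6856 to 6965 FPKM in Paused (FPKM is a fragment count scaled by transcript length and library size). Tdgf1, a co-receptor of Nodal, was the 1 marker of 12 called higher (8.33%, against 7.64% of all tested rows), and 0 were called lower. In the authors' second set of columns, described below, 7 of the 12 were called lower and 0 higher, against 76.9% and 0.378% of all tested rows. Mesoderm and endoderm markers were low. Mesoderm markers summed to 4.57 to 28.3 FPKM in Serum and 3.03 to 4.44 in Paused. Endoderm markers summed to 7.65 to 16.1 and 13.9 to 17.6 FPKM, with Ttr at 0 in the 6 libraries. Trophoblast markers, 8 of 11 tested, summed to 69.8 to 329 FPKM in Serum and 29.8 to 53.6 in Paused. Much of the Serum sum was Krt8 (161, 24.4 and 62.6 FPKM in E14, v6.5 and Oct4 GiP) and Krt18 (108, 18.7 and 36.4). The sum thus does not stand for all the markers. Tfap2c, Krt7, Krt8 and Krt18 among them were called lower (50% of the 8, against 10.5% of all tested rows). Fibroblast markers, 4 of 10 tested, summed to 19.0 to 35.6 FPKM in Serum and 13.7 to 29.4 in Paused, and Col1a1 and Thy1 were called lower. Neural markers summed to 140.3 to 177.6 FPKM in Serum and 118.9 to 149.3 in Paused. In bulk RNA, fewer cells of a type and less RNA per cell cannot be told apart.

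A named row was tested if 3 or more of the 9 libraries listed it at 1 FPKM or above. Of 12711 such rows, 2311 were called at an adjusted p under 0.05 in limma's trended fit (18.2%). Of these, 971 were higher (7.64%) and 1340 lower in Paused (10.5%). All 2311 moved the same way in the 3 lines, against 7883 of all tested rows (62.0%, with 29.6% up and 32.4% down). In 2089 of the called rows (90.4%) the Serum and Paused libraries did not overlap, against 38.6% of all tested rows. A call rests on these same differences within lines, so both shares follow largely from the selection and are no separate support. Changes were mostly moderate: 690 higher and 921 lower rows passed 0.5 on the log2 scale, and 101 and 178 passed 1. The changes of the lines correlated across genes, which are not replicates, with a Spearman coefficient of 0.71 between E14 and Oct4 GiP and of 0.59 between v6.5 and either of them. A log2 fold change here is on the log2(FPKM + 1) scale ± limma's standard error, and it understates the change of low genes.

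The number called depended on single libraries. Without the Serum library of E14, v6.5 or Oct4 GiP, 729, 787 and 12 rows were called, and without the Paused library of these lines 38, 38 and 16. Without the 2i library of Oct4 GiP, which enters only the shared estimate of the spread, the count was 1483. Leaving out a whole line left 4 to 7. There were 10 rows called whichever single library was left out: Hbp1, Crebrf, Klhl24, Irak1, Nr1d2 and Gprasp2 higher, Klhl13 and Slc4a11 lower, and the microRNA host loci Mirlet7f-1 (higher) and Mir6921 (lower), whose values in an mRNA library do not measure the mature microRNA. These names follow from that count and were chosen after their values were seen.

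The authors' second set of columns, which multiplies FPKM by 1 constant per library, placed most tested genes lower in Paused. The median change of all tested rows was -0.01 in FPKM and -0.88 on the authors' scale, where 48 rows were called higher (0.378%) and 9779 lower (76.9%). All 1340 rows lower in FPKM stayed called lower there. Among rows higher in FPKM, 40 stayed called higher and 251 were called lower. Every change below is in FPKM, and therefore relative to that shift, which differs from gene to gene because 1 is added before the logarithm. Of the 971 higher rows, 259 also lay above Serum on the authors' scale.

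Genes called lower were expressed at higher levels and had shorter transcripts than genes called higher. In the quintile of tested genes with the highest level over the 6 libraries, 23.2% were called lower and 4.72% higher, with a median change of -0.15, while the lowest quintile had 6.21% and 4.84%. By the median transcript length of each gene in GENCODE M21 (GRCm38), the shortest quintile had 16.4% lower and 5.31% higher, and the longest quintile 4.53% lower and 11.3% higher. The median length was 1781.5 bases for higher genes, 888.5 for lower genes and 1339 for all. GC content was 48.8%, 52.2% and 51.0% in the same order. After a correction for length and GC content within the same fit, 798 rows were called higher and 1115 lower of 12386. RNA integrity was not given in the labels, and its part in the relation to length was not tested.

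**Figure D1:**
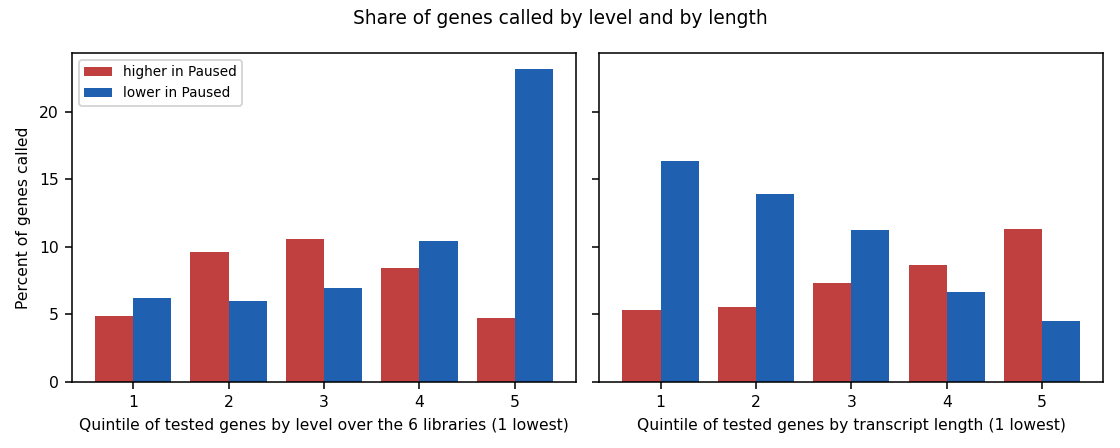
Percent of tested genes called higher (red) or lower (blue) in Paused, by quintiles of mean log2(FPKM + 1) over the 6 libraries (left) and by quintiles of transcript length (right). Lower calls take 23.2% of the quintile with the highest level and 16.4% of the quintile with the shortest transcripts, and higher calls take 11.3% of the quintile with the longest.

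Among called genes with a mean of 5 FPKM or above and the same sign in the 3 lines, the rises largest against their error were those of Hbp1, Crebrf, Irak1, Klhl24 and Nr1d2, in that order of the moderated t. Hbp1 (chromosome 12, 31926254 to 31950535 in GRCm38), a transcriptional repressor that slows cell cycle entry, stood at 19.5, 18.9 and 18.7 FPKM in Serum and 57.3, 54.5 and 55.5 in Paused, in the order E14, v6.5 and Oct4 GiP, which is kept throughout. The 3 Paused libraries were all well above Serum, and the change was 1.5 ± 0.07 (adjusted p = 0.002). Crebrf (chromosome 17, 26715650 to 26776635), which limits the stress factor CREB3, stood at 2.27, 2.02 and 2.11 and 12.5, 10.4 and 11.7 FPKM, a mean 5.41-fold higher level. Irak1, a kinase of Toll-like and interleukin receptor signalling, stood at 17.9, 15.9 and 17.3 FPKM in Serum and 109, 106 and 112 in Paused (2.61 ± 0.14). Nr1d2 (chromosome 14, 18204054 to 18239127), the clock repressor REV-ERB beta, rose from 6.1, 5.72 and 6.28 to 18.9, 16.7 and 20.1 FPKM (1.47 ± 0.09, adjusted p = 0.0034). In Crebrf, Irak1 and Nr1d2 too the groups did not overlap.

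The promoters of Hbp1, Crebrf, Klf11 and Ldha hold letters that transcription factors are known to bind. These promoters were picked as examples, and those of Irak1, Klhl24 and Nr1d2 are not shown. Hbp1 is shown as a known FoxO target, Crebrf and Klf11 as leading higher genes with the palindrome CACGTG, and Ldha, the lactate dehydrogenase subunit that was lower, as a gene with the same letters that moved the other way. Each gene was given 1 start, the first listed in RefSeq (GRCm38.p6), and its other starts were not searched. The windows of Hbp1 and Ldha lie inside the GENCODE interval of their gene, and that of Klf11 lies partly inside. The 250 bases before that start are given 5′ to 3′ on the gene's strand, with the FoxO motif or the E-box in capitals.
Hbp1, minus strand, chr12:31950246-31950495: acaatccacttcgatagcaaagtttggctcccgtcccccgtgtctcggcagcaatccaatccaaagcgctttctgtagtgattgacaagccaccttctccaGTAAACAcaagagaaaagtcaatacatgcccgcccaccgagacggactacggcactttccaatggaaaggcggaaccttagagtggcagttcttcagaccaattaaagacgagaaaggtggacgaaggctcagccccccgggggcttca
Crebrf, plus strand, chr17:26715400-26715649: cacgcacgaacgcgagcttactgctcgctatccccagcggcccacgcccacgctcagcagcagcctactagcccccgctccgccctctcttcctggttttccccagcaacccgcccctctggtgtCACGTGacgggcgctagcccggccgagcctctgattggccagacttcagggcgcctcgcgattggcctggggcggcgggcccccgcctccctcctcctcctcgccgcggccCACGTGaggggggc
Klf11, plus strand, chr12:24651121-24651370: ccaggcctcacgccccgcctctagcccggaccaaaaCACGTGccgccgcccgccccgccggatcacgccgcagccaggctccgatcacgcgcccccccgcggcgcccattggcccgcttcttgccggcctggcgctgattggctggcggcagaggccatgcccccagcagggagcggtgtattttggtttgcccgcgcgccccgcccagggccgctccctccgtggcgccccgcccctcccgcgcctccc
Ldha, plus strand, chr7:46845554-46845803: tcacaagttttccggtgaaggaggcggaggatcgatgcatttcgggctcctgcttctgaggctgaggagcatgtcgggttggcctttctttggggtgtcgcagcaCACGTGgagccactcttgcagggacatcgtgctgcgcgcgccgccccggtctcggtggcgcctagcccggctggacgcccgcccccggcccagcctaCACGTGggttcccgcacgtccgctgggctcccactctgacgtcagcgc

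The FoxO letters GTAAACA end 142 bases before the Hbp1 start. The E-box ends 119 and 8 bases before the Crebrf start, 208 bases before that of Klf11, and 139 and 42 bases before that of Ldha. CACGTG is shared by the TFE factors, MYC, USF and the clock factors, and it is its own reverse complement. Both strands were searched in windows of 300 bases (250 before and 50 after the first listed start) for 9359 of 11563 tested protein-coding symbols (80.9%). The E-box was in 15.7% of promoters of genes called higher (113 of 722), in 9.05% of those called lower (96 of 1061) and in 10.6% of all. GTAAACA was in 3.60%, 1.89% and 2.48%, that is, in 26 higher and 20 lower genes. CCAAT was in 43.4%, 41.4% and 39.5%, and the letters GCGTG, the core of the HIF1 element, in 55.4%, 53.6% and 52.8%. TGATGNAAT (the ATF4 element), the NRF1 palindrome and a sterol element, the last pair matched to their consensus, were in 0.459%, 2.12% and 0.15% of all promoters and in 0.139%, 1.66% and 0.139% of those of higher genes. These shares are a description of letters and show no binding, and the median GC content of the windows was 61.7%, 60.3% and 61.3%.

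Ldha, the gene with a pair of E-boxes and a fall, went from 660.5, 1059 and 598 to 282, 293 and 220.0 FPKM (-1.51 ± 0.21, adjusted p = 0.014). All Paused libraries lay below all Serum libraries, and 2i was lower still at 172 ± 52.9 FPKM (mean ± SD, n = 3).

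**Figure D2:**
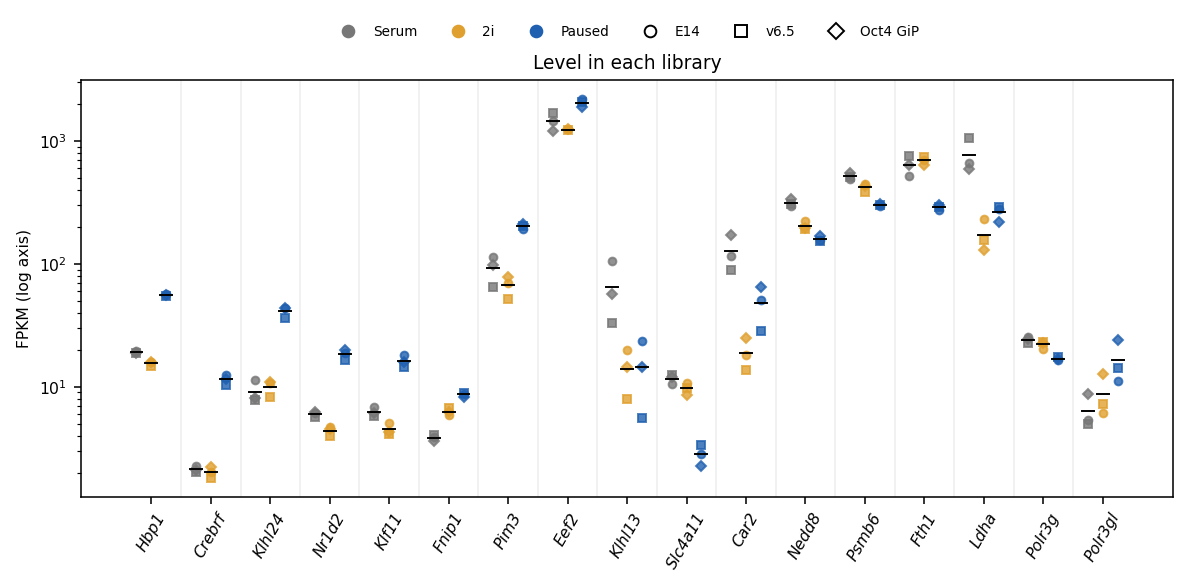
FPKM on a log axis in each library for 17 genes, with Serum in grey, 2i in orange and Paused in blue, marker shapes for the 3 lines and a black bar at the mean of each group. Hbp1, Crebrf and Nr1d2 in Paused lie above all Serum and 2i libraries, Slc4a11 lies below both, and Klhl13 and Ldha are low in Paused and in 2i.

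Further genes with uniform rises belonged to varied processes. Klhl24, a FoxO-responsive adaptor of ubiquitin ligases, rose from 11.3, 7.75 and 8.15 to 43.8, 36.4 and 44 FPKM. Phf21a, which reads unmethylated lysine 4 of histone H3 in a demethylase complex, rose by 1.19 ± 0.10, and Mllt10, a cofactor of the H3K79 methyltransferase, by 1.11 ± 0.09. Fnip1, the partner of folliculin in nutrient signalling to mTor complex 1, rose from 3.88, 4.09 and 3.63 to 8.82, 8.89 and 8.29 FPKM (0.99 ± 0.09). Arhgef28, a guanine nucleotide exchange factor, was low in Serum (2.05, 0.663 and 1.01 FPKM) and stood at 14.8, 6.67 and 8.71 FPKM in Paused, with no overlap. Mtss1, a membrane-bending actin regulator, rose by 1.02 ± 0.09 and Trak1, an adaptor that carries mitochondria along microtubules, by 1.0 ± 0.09. Gprasp2, a sorting protein of G protein-coupled receptors, rose by 1.30 ± 0.09.

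Falls of like uniformity were seen in genes of quite different function. Klhl13, an adaptor of the cullin 3 ligase on chromosome X, went from 107, 32.9 and 56.7 to 23.6, 5.54 and 14.6 FPKM (-2.13 ± 0.15, adjusted p = 0.0055). Each line fell to about the same extent although the lines differed in level, with line changes of -2.13, -2.38 and -1.88. Slc4a11, a membrane transporter of the bicarbonate family, went from 10.6, 12.5 and 11.9 to 2.85, 3.34 and 2.29 FPKM (-1.73 ± 0.12). Car2, a carbonic anhydrase, fell from 116, 89.8 and 173 to 50.9, 28.6 and 65.4 FPKM, with no overlap between groups. The copper chaperone Atox1 shifted by -1.10 ± 0.08 on the log2 scale, the small membrane protein Smim11 by -1.35 ± 0.10, the histone variant H2afj by -0.94 ± 0.08, the p53 target Rps27l by -0.95 ± 0.09, the aldose reductase Akr1b3 by -0.68 ± 0.06 and the focal adhesion protein Tes by -1.77 ± 0.17.

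Among the most abundant messages, the largest differences in FPKM included several growth genes. Pim3, a kinase that promotes growth and survival, rose from 114, 65.4 and 97.6 to 194, 204 and 212 FPKM (1.17 ± 0.16, adjusted p = 0.014), and no library overlapped. Eef2, the elongation factor that moves the ribosome, stood at 1447, 1681 and 1206 FPKM in Serum and 2196, 2086 and 1896 in Paused (0.52 ± 0.11, adjusted p = 0.027), and Eif2ak2, the RNA-sensing kinase PKR, rose from 292, 235 and 274 to 419, 357 and 394. The ubiquitin ligase Mkrn1 rose by 0.58 ± 0.13 and the ribosomal proteins Rps27 and Rps4x by 0.43 ± 0.11 and 0.28 ± 0.07; on the authors' scale all but Pim3 of these were below Serum. Among falls, the actin regulators Cfl1 and Pfn1 shifted by -0.61 ± 0.11 and -0.51 ± 0.11, the hypusinated translation factor Eif5a by -0.59 ± 0.10, the RNA-binding protein Ybx1 by -0.52 ± 0.07, the chromatin-loosening protein Ptma by -0.46 ± 0.10 and the ribosomal protein Rpl41 by -0.59 ± 0.11. Cfl1 was at 2902, 2656 and 2663 FPKM in Serum and 1835, 1652 and 1911 in Paused, without overlap. Ptma was not called after the correction for length and GC content. Many of these genes have near-identical processed pseudogenes, so their values are uncertain.

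Families of genes were counted next, each beside the background of 10.5% lower and 7.64% higher. On the authors' scale that background is 76.9% lower and 0.378% higher. Abundant genes and short transcripts had larger lower shares, 23.2% and 16.4% in the quintiles given above. Median transcript lengths were 850.5 bases for the proteasome, 761 for mitochondrial import, 808 for the spliceosome core and 770 for the TCA cycle, against 1339 for all. Families were not matched for level or length. The families were chosen with earlier results of these data known, and none was tested as a set.

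**Figure D3:**
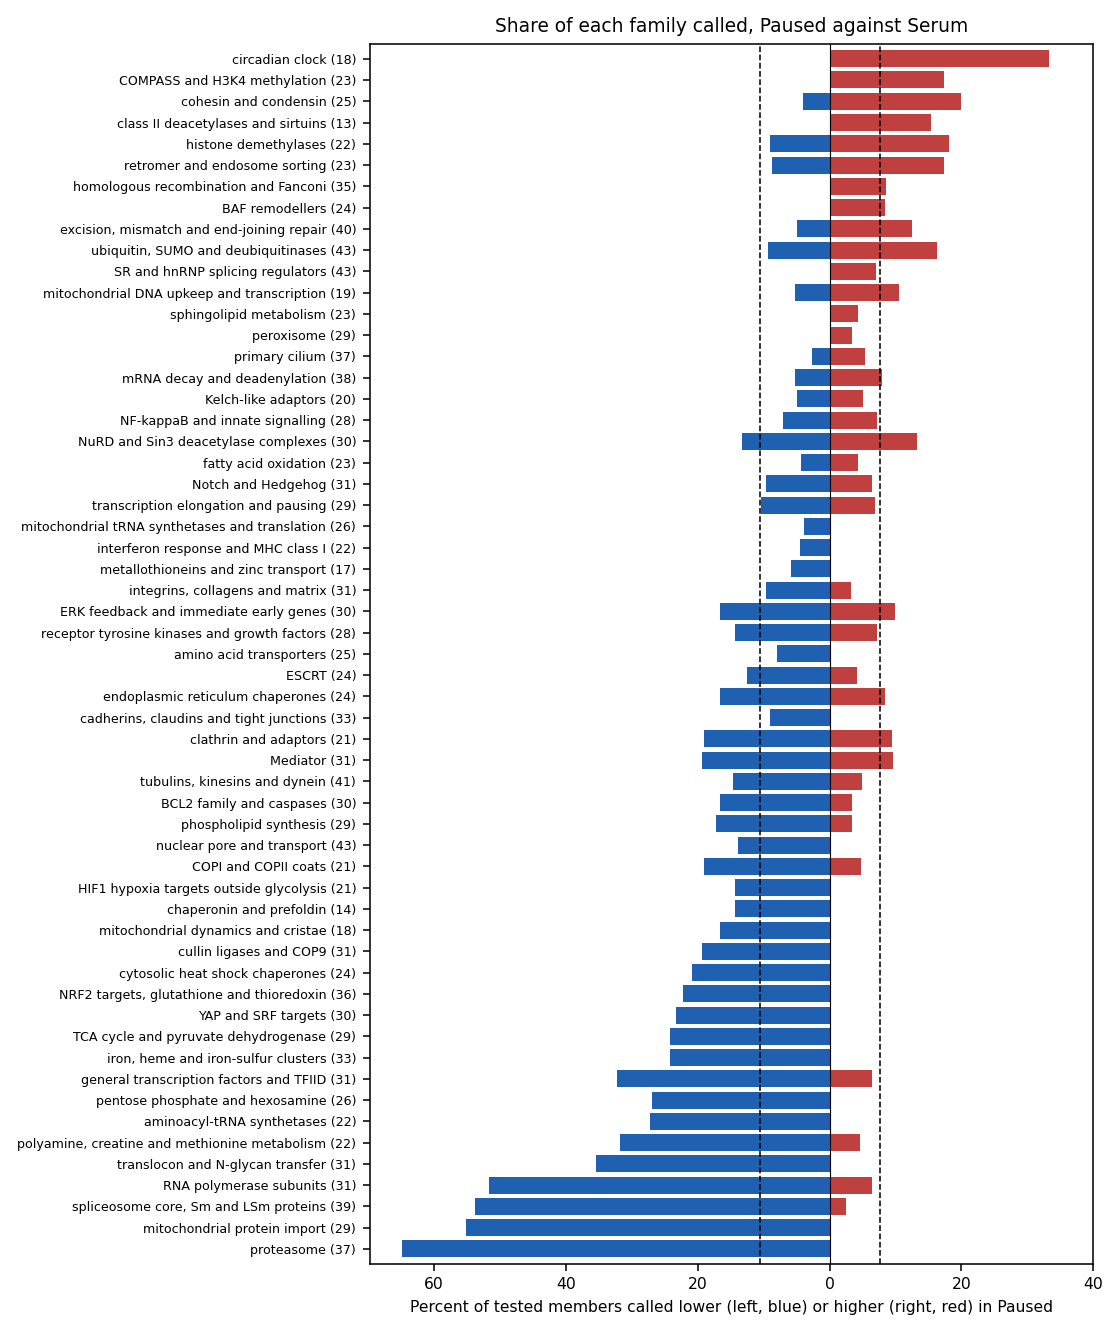
Percent of the tested members of each of 57 families (number tested in brackets) called lower (blue, left) or higher (red, right) in Paused against Serum, with dashed lines at the background of 10.5% and 7.64%. The proteasome, mitochondrial import, the spliceosome core and RNA polymerases reach furthest left, and the circadian clock furthest right.

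The proteasome, which degrades ubiquitin-tagged proteins, had the largest share of lower members of the 57 families. Of its 37 subunits and assembly factors, all tested, 24 were called lower and 0 higher (0 at an unadjusted p under 0.05), with a median of -0.43 (-0.46, -0.39 and -0.40 in the 3 lines), and 35 moved down in all 3 lines. With the authors' constants 37 were called lower. The catalytic subunit Psmb6 went from 489.8, 511 and 551 to 295, 299.9 and 308 FPKM (-0.78 ± 0.08, adjusted p = 0.0099), without overlap. Core particle subunits Psmb3 (-0.54) and Psmb4 (-0.46), the ATPases Psmc4 (-0.59), Psmc5 (-0.54) and Psmc1 (-0.52), the lid subunit Psmd13 (-0.57), the lid deubiquitinase Psmd14 (-0.54) and the assembly factor Pomp (-0.54) fell by similar amounts. Core, base, lid and assembly factors were thus all among those called. After the correction for length and GC content 19 were called lower.

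Ligases that feed the proteasome showed the same direction in part. Of 31 cullin ligase and COP9 signalosome genes, 6 were lower and 0 higher (1 at an unadjusted p under 0.05) (30 lower on the authors' scale). Nedd8, the modifier that activates cullins, went from 298, 307 and 339.6 to 156, 154 and 168 FPKM (-0.98 ± 0.09), so that each Paused library held about 1 unit less on the log2 scale. The RING subunits Rnf7 (-0.92) and Rbx1 (-0.42), the adaptor Skp1a (-0.54) and the signalosome subunits Cops8 (-0.42) and Cops6 (-0.33) were the others. In contrast, the list of ubiquitin, SUMO and deubiquitinase genes held 7 higher and 4 lower of 43 in FPKM, and 37 were lower on the authors' scale. Usp28, a deubiquitinase that stabilises Myc and p53 pathway proteins, rose from 43.4, 39.8 and 40.2 to 81.5, 66.2 and 80.5 FPKM (0.87 ± 0.08, adjusted p = 0.0096). The deubiquitinases Usp9x (0.78) and Usp11 (0.92) also rose, and the proteasome-bound Uchl5 (-0.58) and the splicing factor Usp39 (-0.46) fell.

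Lower calls among chaperones were few in number. Of 24 cytosolic heat shock chaperones, 5 were lower and 0 higher (0 at an unadjusted p under 0.05) (23 lower on the authors' scale): the inducible Hspa1b (-1.15) and Hspa1a (-1.01), near-identical copies whose split is uncertain, the Hsp90 cochaperones Cdc37 (-0.66) and Ahsa1 (-0.43), and the exchange factor Hspa4 (-0.41). Of 14 chaperonin and prefoldin genes, Pfdn1 and Pdcl3 were lower, and 12 moved down in all 3 lines with a median of -0.24. Of 24 chaperones of the endoplasmic reticulum, Pdia6, Manf, Dnajb11 and Pdia3 were lower and a pair higher. Derl3, a factor of protein retrotranslocation, rose from 6.24, 4.97 and 4.15 to 21.6, 15.1 and 19.4 FPKM (1.68 ± 0.30) and Dnajb9, a cochaperone of BiP, by 0.70 ± 0.10 (below Serum on the authors' scale).

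Most genes that import proteins into mitochondria were called lower. Of 29 tested, 16 were lower and 0 higher (0 at an unadjusted p under 0.05), with a median of -0.47 and 24 down in all 3 lines (29 called lower on the authors' scale, 14 after the length and GC correction). Timm13, a chaperone of the intermembrane space, went from 100.1, 88.1 and 93.7 to 51.6, 51.8 and 57.4 FPKM (-0.80 ± 0.09), and Timm17a, a channel subunit of the inner membrane, from 134, 140.4 and 142 to 88.8, 85.3 and 83 (-0.69 ± 0.08). Neither overlapped between groups. The outer membrane subunits Tomm5 (-0.93), Tomm40 (-0.54) and Tomm22 (-0.52) and the disulphide relay protein Chchd4 (-0.56) fell as well. By symbol stem, Timm genes had the lowest median (-0.52) of 136 stems with 10 or more tested members, 8 of 14 being lower, and after Timm stood Ndufa, Mrps and Ndufb.

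Other mitochondrial families had few calls. Of 26 mitochondrial tRNA synthetases and translation factors, 1 was lower, the elongation factor Tufm, at 133, 132 and 127 FPKM in Serum and 78.3, 82.3 and 81.4 in Paused (-0.69 ± 0.07). Of 19 genes for mitochondrial DNA upkeep, the RNA-binding Lrpprc (0.38) and the thymidine kinase Tk2 (0.43) were higher and Slirp, the partner that Lrpprc binds, was lower (-0.78). Of 18 genes for mitochondrial shape and cristae, Minos1 (-0.77), Phb (-0.59) and Phb2 (-0.47) were lower. With the authors' constants 25, 18 and 18 members of these 3 lists were called lower, and Lrpprc and Tk2 stood below Serum there.

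The spliceosome core and the regulators of splicing differed in their counts. Of 39 tested core, Sm and LSm proteins, 21 were lower and 1 higher, with a median of -0.38 (all 39 called lower on the authors' scale). Phf5a, a small subunit of the branch-point complex SF3B, went from 317, 377 and 320.4 to 169, 179.9 and 175 FPKM (-0.95 ± 0.10, adjusted p = 0.011), without overlap. Its partner Sf3b4 shifted by -0.51 ± 0.08, Snrpa1 of the U2 particle by -0.77 ± 0.14, and the ring proteins Lsm4 and Snrpd2 by -0.67 ± 0.08 and -0.50 ± 0.07. Snrnp200, the large helicase that unwinds U4 from U6, was the 1 higher (0.39 ± 0.08). Among 43 SR and hnRNP regulators of splice site choice, 0 were lower in limma's fit (6 at an unadjusted p under 0.05) and Rbm5 (0.49), Clk1 (0.43) and Ddx17 (0.41) were higher, a share of 6.98% against the background of 7.64%. Of the 43, 42 were called lower on the authors' scale.

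Lower subunits of the RNA polymerases came from all 3 enzymes. Of 31 subunits, 16 were lower and 2 higher (30 lower on the authors' scale, 10 after the length and GC correction). Polr2d of the stalk went from 96.6, 103 and 102 to 57.8, 61.2 and 57.2 FPKM (-0.77 ± 0.08), and the small shared subunits Polr2l, Polr2k, Polr2h and Polr2f shifted by -0.75, -0.68, -0.46 and -0.41. The large subunits had no common direction: Polr1b was lower (-0.27 ± 0.07), Polr3b was higher, and the others were not called. Polr2a stood at 114, 141 and 113 and 133, 162 and 160.4 FPKM (0.31 ± 0.09, adjusted p = 0.053), Polr2b had a difference of -0.05 ± 0.07, Polr1a of 0.26 ± 0.10 and Polr3a of -0.10 ± 0.08. These large subunits were named for their role after their values were seen.

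A pair of alternative subunits of RNA polymerase III moved in opposite directions. Polr3g, the form known to be abundant in ES cells, went from 25.3, 22.8 and 24.7 to 16.4, 17.5 and 16.7 FPKM (-0.50 ± 0.09, adjusted p = 0.021). Polr3gl, its counterpart in most differentiated cells, went from 5.42, 5.03 and 8.72 to 11.1, 14.1 and 24 FPKM (1.20 ± 0.12, adjusted p = 0.0096), and remained above Serum on the authors' scale (0.38). In each the groups were separate, and Polr3g remained the higher of the pair in E14 and v6.5 in FPKM. In Oct4 GiP the Paused level of Polr3gl exceeded that of Polr3g. Polr3b, the other large subunit of the enzyme, was called higher too (0.42 ± 0.09), although it was below Serum on the authors' scale.

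Factors that start transcription were also lower in part. Of 31 general factors and TFIID subunits, 10 were lower and 2 higher (30 lower on the authors' scale). Gtf2f1 of TFIIF shifted by -0.67 ± 0.10, Gtf2h5, the smallest subunit of TFIIH, by -0.72 ± 0.12 and the histone-fold protein Taf12 by -0.68 ± 0.09. The scaffold subunit Taf4a went the other way, from 26.8, 25.3 and 26.7 to 44.7, 40.3 and 48.1 FPKM (0.73 ± 0.14), and Taf6 rose by 0.35 ± 0.08. Of 31 Mediator subunits, 6 were lower, Med10 (-0.68) the furthest, and Med12 (0.48), Cdk19 (0.66) and Med13l (0.71), members of the kinase module, were higher (29 lower on the authors' scale), while Ccnc, the cyclin of that module, was lower (-0.36). Of 29 elongation and pausing factors, Ssrp1, Larp7 and Supt4a were lower and Aff4 and Ccnt2 higher (27 lower on the authors' scale).

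**Figure D4:**
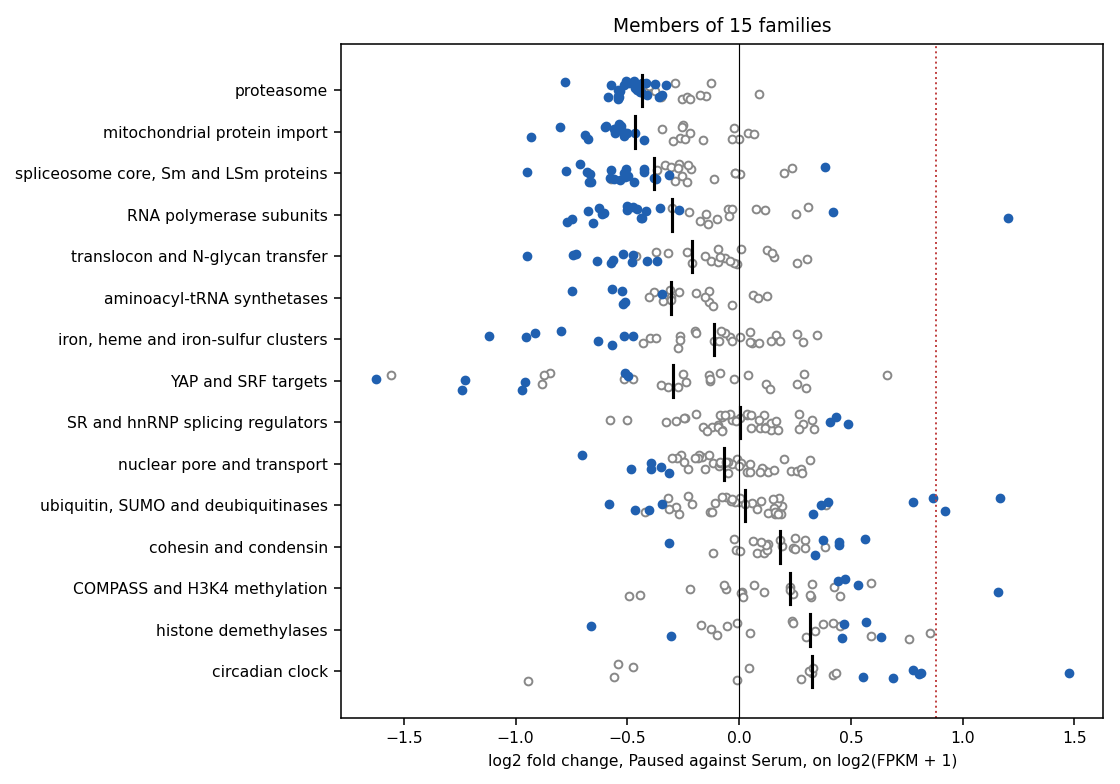
Log2 fold change of each tested member of 15 families, filled where called and open where not, with a black bar at the family median. The dotted red line at 0.88 is the size of the median shift of all tested rows on the authors' scale and does not sort single members by their sign there, and Polr3gl, Nr1d2 and Kmt2c are among the few points to its right.

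Other steps of protein production were lower in part. Of 31 genes of the translocon and of N-glycan transfer, which bring new proteins into the endoplasmic reticulum, 11 were lower and 0 higher (1 at an unadjusted p under 0.05) (31 lower on the authors' scale). Ost4, a small subunit of the oligosaccharyl transferase, went from 161, 168 and 166 to 79, 85.5 and 90.8 FPKM (-0.95 ± 0.10), Sec61b of the channel shifted by -0.74 ± 0.08, Sec61g by -0.57 ± 0.07 and the transferase subunit Dad1 by -0.73 ± 0.11. Of 22 cytosolic aminoacyl-tRNA synthetase genes, 6 were lower and 0 higher (0 at an unadjusted p under 0.05): the scaffold Aimp2 (-0.75), Wars, Aars, Yars, Farsa and Kars, with a median of -0.31 over all 22 (22 lower on the authors' scale). Aimp2 stood at 94.4, 102 and 99.2 FPKM in Serum and 56, 57.7 and 61.4 in Paused.

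Lists of vesicle coats and endosomal sorting held calls in both directions. Ap2s1, the small chain of the AP2 endocytic adaptor, fell from 113, 102 and 106 to 55.4, 53.2 and 60.1 FPKM (-0.92 ± 0.10), among 21 clathrin and adaptor genes of which Clta, Ap2m1 and Epn1 were lower too and Cltc (0.28) and Ap3b1 (0.54) higher. Of 23 retromer and endosome sorting genes, Vps35 (0.49), Snx2 (0.40), Eea1 (0.43) and Fam21 (0.68) were higher and Rab5c and Snx3 lower, and of 24 ESCRT genes Snf8, Vps36 and Chmp3 were lower and Chmp2a higher. Of 21 coat genes of COPI and COPII, Copz1, Arf1, Sec13 and Sec23b were lower and Sec16a (0.67) higher. The authors' columns had 21, 21, 24 and 20 members of these 4 lists called lower. In FPKM the higher shares were 9.52%, 17.4%, 4.17% and 4.76%, against a background of 7.64%. The lower shares were 19.05%, 8.70%, 12.5% and 19.05%, against 10.5%. These shares rest on few genes per list.

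Central metabolism outside glycolysis was lower in single enzymes. Of 29 genes of the TCA cycle and pyruvate dehydrogenase, 7 were lower and 0 higher (2 at an unadjusted p under 0.05) (27 lower on the authors' scale). Mdh2, the mitochondrial malate dehydrogenase, went from 329, 347 and 328 to 198, 221 and 193 FPKM (-0.71 ± 0.11), citrate synthase Cs shifted by -0.47, Pdhb by -0.46 and Ogdh by -0.45. Idh1, the cytosolic isocitrate dehydrogenase, shifted by -0.71 ± 0.11 and stood at 103 ± 2.46 FPKM in 2i, so that Paused was also lower than 2i (-2.61 ± 0.11). Of 26 genes of the pentose phosphate and hexosamine routes, 7 were lower and 0 higher (2 at an unadjusted p under 0.05) (24 lower on the authors' scale), among them the transaldolase Taldo1 (-0.44) and the mannose enzymes Mpi (-0.57) and Pmm1 (-0.92).

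Of 22 polyamine and methyl-group enzymes, 7 were lower and 1 higher, and 11 moved down in all 3 lines (20 called lower on the authors' scale). Ornithine decarboxylase Odc1 (-0.71), which begins polyamine synthesis, the decarboxylase Amd1 (-0.53), spermine synthase Sms (-0.69) and the antizyme Oaz1 (-0.63) were lower together with the salvage enzyme Mtap (-0.67) and creatine kinase Ckb (-1.24). Ahcy, which clears the product of methyl transfer, went from 153, 227 and 147 to 80.1, 93.1 and 91.1 FPKM (-0.96 ± 0.18). The polyamine oxidase Paox, which breaks polyamines down, was the 1 higher (0.40) in FPKM and below Serum on the authors' scale.

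Antioxidant and iron genes had lower calls and 0 higher. Of 36 NRF2 targets, glutathione and thioredoxin genes, 8 were lower and 0 higher (1 at an unadjusted p under 0.05, and 32 lower on the authors' scale), and of 33 genes for iron, heme and iron-sulfur clusters 8 were lower and 0 higher (2 at an unadjusted p, and 32 lower on that scale). Hmox1, the inducible heme oxygenase, went from 87, 169 and 133 to 32.5, 69.6 and 43.1 FPKM (-1.42 ± 0.16, adjusted p = 0.011). Fth1, the heavy chain of ferritin that stores iron, went from 518, 759.9 and 636 to 277, 293 and 299 FPKM (-1.12 ± 0.12). Both were separated between groups, and Paused was also below 2i in both (-0.73 and -1.26). The thioredoxins Txn1 and Txn2 shifted by -0.77 and -0.86, the peroxiredoxins Prdx6, Prdx2 and Prdx3 by -0.96, -0.80 and -0.52, the iron exporter Slc40a1 by -0.80, the heme enzyme Alad by -0.91 and the cluster proteins Bola3, Glrx5 and Iscu by -0.96, -0.63 and -0.51.

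Lists of lipid metabolism had few calls. Cpt1a, which commits fatty acids to oxidation in mitochondria, rose from 8.65, 4.33 and 5.27 to 14.5, 9.84 and 16.4 FPKM (1.06 ± 0.16), was the 1 higher of 23 fatty acid oxidation genes and remained far below 2i (48.1 ± 12.4 FPKM). Ppard, a nuclear receptor for fatty acids, was the 1 lower (-0.40). Ephx2, the soluble epoxide hydrolase, was the 1 called of 29 peroxisome genes (2.23 ± 0.20), and Kdsr of the sphingolipid route the 1 of 23 (0.62). Phospholipid synthesis had 5 lower of 29, Cdipt for phosphatidylinositol (-0.75 ± 0.11) the furthest, with Pemt, Ptpmt1, Agpat1 and Ptdss1, and Etnk1 higher (0.86). In the authors' columns 21, 26, 19 and 26 members of these 4 lists were called lower, and Ephx2 was called higher.

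Some genes of the actin and stress-fibre cytoskeleton were called lower. Of 30 targets of YAP and of SRF, the factors that read cell tension, 7 were lower and 0 higher (1 at an unadjusted p under 0.05, and 26 lower on the authors' scale). Tropomyosin Tpm1 went from 235, 131 and 157 to 80.3, 71.8 and 62.2 FPKM (-1.24 ± 0.13). Tpm4 shifted by -0.96 ± 0.13, caldesmon Cald1 by -1.62 ± 0.38 and the YAP-binding Amotl1 by -0.97 ± 0.12. Srf itself (-0.50) and the YAP paralogue Wwtr1 (-0.51) were lower. Of 41 tubulin, kinesin and dynein genes, 6 were lower and Kif13b (0.50) and Dync1h1 (0.62) higher (38 lower on the authors' scale), and the beta tubulin Tubb6 went from 97.9, 96.6 and 94.1 to 30.5, 24.7 and 21.7 FPKM (-1.88 ± 0.20), far apart. Of 31 integrin, collagen and matrix genes, Col1a1 (-1.76), Col4a1 (-1.45) and Col5a1 (-1.19) were lower, and Col18a1, a basement membrane collagen, rose from 138, 139 and 171 to 257, 225 and 298 FPKM (0.79 ± 0.12), a rise that is below Serum on the authors' scale. The junction genes Cldn7, Dsp and Pkp2 were lower among 33 of their list (24 on that scale). Lower calls took 9.68% of the matrix list and 9.09% of the junction list, near the background of 10.5%. The trophoblast markers given above were at 69.8 to 329 FPKM in Serum against 29.8 to 53.6 in Paused. Tested fibroblast markers, Col1a1 among them, summed to 33.98, 18.09 and 21.24 FPKM in Serum. In Paused they summed to 29.27, 13.25 and 25.02, so they fell in E14 and v6.5 and rose in Oct4 GiP. The part of such cells in these falls was not tested.

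Lists of growth factor and early response genes held calls in both directions. Of 30 ERK feedback and immediate early genes, Atf3 (-1.36), Fosl2 (-0.97), Jun (-0.97), Ier3 (-0.72) and the phosphatase Dusp14 (-1.43) were lower. The feedback inhibitors Spry1 (1.12), Spry2 (0.44) and Spred2 (0.56) were higher, and on the authors' scale 22 members were called lower. Spry1 stood at 6.5, 8.77 and 6.31 FPKM in Serum and 18.9, 15.5 and 15.5 in Paused, and at 4.69 ± 1.12 in 2i. Of 28 receptor tyrosine kinases and growth factors, Igf2 went from 9.37, 2.89 and 7.79 to 1.4, 0.785 and 0.55 FPKM (-1.91 ± 0.31), while Igf2r, the receptor that clears it, rose from 13.8, 12.2 and 11.2 to 23.9, 18.2 and 19.4 (0.68 ± 0.08). The insulin receptor Insr rose by 0.77 ± 0.10, and Fgfr2, Ddr1 and Efna1 were lower (-1.07, -1.0 and -0.51). With the constants 17 of these 28 were called lower. Of 31 Notch and Hedgehog genes, Lfng, Nrarp and Hey1 were lower and Notch2 and Maml2 higher (19 lower on the authors' scale). Higher and lower calls took 10% and 16.7% of the ERK list and 7.14% and 14.3% of the receptor list. They took 6.45% and 9.68% of the Notch list, near the background of 7.64% and 10.5%.

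Genes of cell death included an opposite pair. The BH3 protein Bmf, which promotes death, rose from 2.84, 2.85 and 1.16 to 11.2, 12.4 and 5.1 FPKM (1.65 ± 0.17, adjusted p = 0.0099) and stayed higher on the authors' scale (1.04). Bad, another BH3 protein, fell from 11.7, 9.98 and 12.7 to 5.67, 5.75 and 6.84 FPKM (-0.81 ± 0.10). Cytochrome c, Cycs, shifted by -0.98 ± 0.14, and Bok, Bcl2l1 and Htra2 were lower too, which made 5 lower and 1 higher of 30 (27 and 1 on the authors' scale).

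Among the 57 families the circadian clock had the largest share of higher members. Of 18 tested clock genes, 6 were higher (33.3%) and 0 lower in limma's fit (4 at an unadjusted p under 0.05), with a median of 0.33. On the authors' scale 1 of the 18 was called higher and 9 lower, against 0.378% and 76.9% of all tested rows there. Nr1d2 led the 6 higher in FPKM, and others were the D-box activator Dbp (0.81 ± 0.17), the repressor Nr1d1 (0.80 ± 0.18), Per3 (0.69 ± 0.12) and Cry2 (0.56 ± 0.11). Nr1d1 stood at 8.68, 6.55 and 10.4 FPKM in Serum and 16, 12.9 and 17.7 in Paused, and Per3 at 1.3, 1.25 and 1.11 and 2.65, 2.14 and 2.99, both without overlap. The time of harvest is not given in the labels, and its part in these values was not tested.

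Zinc-finger and nuclear receptor families stood at the high end of the symbol stems. Klf genes had the highest median, 0.56, with 5 of 14 higher, and their median on the authors' scale was -0.36. Klf11, a repressor of the SP1-like group, went from 6.87, 5.78 and 6.18 to 18.2, 14.5 and 16 FPKM (1.24 ± 0.09). Klf12 rose by 1.34 ± 0.14, Klf15 by 1.44 ± 0.29, Klf13 by 0.75 ± 0.12 and Klf9 by 0.68 ± 0.16, the last pair being below Serum on the authors' scale. Klf15 was at 6.05, 1.56 and 5.03 FPKM in Serum and 10.8, 11.6 and 13.5 in Paused. Nr genes followed with a median of 0.40 and 4 of 12 higher, Nr1d1 and Nr1d2 together with the orphan receptors Nr2c1 (0.63) and Nr2c2 (0.71), and a median of -0.50 on the authors' scale. Among 11 Platr genes, long noncoding RNAs associated with pluripotency, 3 were higher, Platr7 with 13.4, 4.58 and 10.9 FPKM in Serum and 34, 23.1 and 35.7 in Paused.

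The large Zfp group moved in the same direction. Of 308 tested Zfp genes, 62 were higher (20.1%) and 4 lower in FPKM, with a median of 0.26, and the median on the authors' scale was -0.55. Zfp740 went from 46.1, 39.4 and 55.3 to 83.1, 105 and 98.9 FPKM (1.02 ± 0.13) and Zfp652 from 15.6, 16.1 and 15.5 to 31.9, 34.8 and 30.1 (0.99 ± 0.10). The lower members were Zfp365 (-1.58 ± 0.20), Zfp385a, Zfp703 and Zfp637. Many Zfp genes have close copies, so reads could be split between them. Cep genes of the centrosome had 8 higher and 1 lower of 33, with a median of 0.24 in FPKM and -0.62 on the authors' scale. The Zfp and Cep stems, and the members named in them and in the Klf, Nr and Platr stems, were singled out after their values were seen.

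Chromatin enzymes that act on histone methylation held calls mostly in the higher direction. Of 23 genes listed under COMPASS and H3K4 methylation, 4 were higher (17.4%) and 0 lower in limma's fit (1 at an unadjusted p under 0.05), against 18 lower on the authors' scale. The enhancer methyltransferase Kmt2c went from 4.73, 3.95 and 3.28 to 8.31, 12.2 and 9.97 FPKM (1.16 ± 0.15, adjusted p = 0.014). Nsd1, Kmt2a and Setd1b rose by 0.53, 0.48 and 0.44. Nsd1 methylates another lysine of histone H3 than Kmt2a and Setd1b do, although it is counted in this list. Of 22 histone demethylases, Kdm4c (0.64), Kdm7a (0.57), Kdm2a (0.47) and Kdm5a (0.46) were higher and Jmjd6 (-0.66) and Kdm1a (-0.31) lower (17 lower on the authors' scale), and without the line in the fit 1 demethylase was called higher. The deacetylase Sirt1, which uses NAD, rose from 36.3, 26 and 30.8 to 53.7, 54.4 and 53.8 FPKM (0.79 ± 0.13) and Hdac5 by 0.43 ± 0.09, 2 of 13 in their list. Arid1a and Bcl7a of the BAF remodellers rose by 0.34 and 0.66, 2 of 24 and near the background. The NuRD and Sin3 complexes were split, with Ing1, Arid4b, Arid4a and Tbl1xr1 higher and Sap18, Mta2, Brms1 and Kdm1a lower among 30. On the authors' scale 11, 20 and 28 members of these last 3 lists were called lower.

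Cohesin and condensin, ring complexes that fold chromosomes, had 5 higher and 1 lower of 25 in FPKM (22 lower on the authors' scale). Nipbl, which loads cohesin, went from 13.3, 13.3 and 11.7 to 18, 19.7 and 20.3 FPKM (0.56 ± 0.09) and its partner Mau2 rose by 0.45 ± 0.08. Smc4 (0.45), Smc3 (0.34) and Ncapd3 (0.37) were higher, and Ncapd2, the matching subunit of condensin I, was lower (-0.31). After the correction for length and GC content 2 of the list were called higher.

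Some kinases that sense DNA damage, picked out after their values were seen, were higher in FPKM. Atr went from 6.8, 4.83 and 6.74 to 11.8, 11.3 and 11.5 FPKM (0.83 ± 0.12), Atm from 9.04, 11 and 7.22 to 12.6, 16.3 and 13.2 (0.59 ± 0.12) and Prkdc from 7.07, 6.84 and 6.6 to 10.3, 12.3 and 14.5 (0.76 ± 0.14), all of them large genes of the kinase family to which mTor belongs. The Atr and Prkdc groups were far apart, and Atm groups were separate by a smaller gap. With Rad51b, Atr and Atm were the 3 higher of 35 recombination and Fanconi genes, a share of 8.57%, near the background of 7.64%. The mismatch protein Msh3 (0.49), the glycosylase Neil2 (0.88) and the damage sensor Ddb2 (0.52) were among the higher, as was Prkdc, and Apex2 (-0.61) and Ung (-0.43) were lower, among 40 excision, mismatch and end-joining genes. In the authors' columns 31 and 34 of these lists were called lower. Atr was not called after the length and GC correction (adjusted p = 0.059), and Prkdc was (0.048).

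RNA decay and nuclear transport had few calls. Xrn1, the exonuclease that degrades decapped messages, rose from 5.29, 5.82 and 5 to 8.67, 8.92 and 9.41 FPKM (0.65 ± 0.10), and Smg1 and Smg6 of nonsense-mediated decay were higher, while the exosome subunits Exosc2 (-0.71 ± 0.09) and Exosc4 were lower, among 38 genes (34 lower on the authors' scale). Of 43 nuclear pore and transport genes, 6 were lower, the Ran exchange factor Rcc1 (-0.70) and Ran itself (-0.48) leading, and 0 higher (4 at an unadjusted p under 0.05, and 43 lower on the authors' scale). Of 37 primary cilium genes Dync2h1 and Ift88 were higher and Wdr35 lower, of 28 NF-kappaB genes Ikbkb and Traf6 were higher and Nfkb2 and Nfkbib lower, and Ifitm3 was the 1 lower of 22 interferon and MHC genes. HIF1 targets outside glycolysis had Ankrd37, Hilpda and Higd1a lower of 21. On the authors' scale these 4 lists held 29, 23, 15 and 16 lower. In FPKM, higher and lower calls took 5.41% and 2.70% of the cilium list and 7.14% each of the NF-kappaB list. These shares were below the background of 7.64% and 10.5%.

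The same genes were set beside 2i to see whether a Paused level also differed from that medium. The Paused minus 2i contrast of the same fit called 2517 rows higher (19.8%) and 3121 lower (24.6%), and it shares the Paused libraries with the comparison above. Of the 971 rows higher than Serum, 517 were also higher than 2i and 62 were lower than 2i, and of the 1340 lower rows, 713 were also lower and 85 higher. Hbp1 (1.78), Crebrf (2.05), Nr1d2 (1.85) and Bmf (1.92) also stood above 2i on the log2 scale. Arhgef28, listed at 0.148, 0.0352 and 0.102 FPKM in 2i, differed from 2i by 3.27 ± 0.19. Irak1 was below 2i, at 177, 117 and 188 FPKM in 2i and 109, 106 and 112 in Paused (-0.53 ± 0.14, adjusted p = 0.021). Klhl13 was 14.1 ± 5.98 FPKM in 2i and 14.6 ± 9.04 in Paused, a difference of -0.06 ± 0.15 that was not called (adjusted p = 0.75). Car2 lay between the media, with 19 ± 5.6 FPKM in 2i, below Paused (1.27 ± 0.11). Of the 37 proteasome genes, 13 were lower than 2i and 1 higher.

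Neural markers did not move together. Sox1 was listed at 0.259, 3 and 1.88 FPKM in Serum and 1.84, 18.3 and 5.34 in Paused (1.53 ± 0.29), and Pax6 at 3.06, 3.31 and 7.44 and 15.2, 5.29 and 20.2 (1.29 ± 0.31). Both were called with the line in the fit although their groups overlapped, since every line moved up from its own level. Nes, an intermediate filament of neural progenitors, fell from 25.6, 34 and 25 to 8.15, 6.37 and 4.17 FPKM (-2.04 ± 0.32).

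Family medians were alike in the 3 lines for the families with the most lower calls and for the clock. The proteasome stood at -0.46, -0.39 and -0.40 with the lines in the order given above, mitochondrial import at -0.42, -0.43 and -0.39, the spliceosome core at -0.39, -0.48 and -0.33 and the clock at 0.33, 0.31 and 0.47. Leaving out any single library or line kept the proteasome median between -0.47 and -0.39. COMPASS genes varied more, at 0.03, 0.27 and 0.36, and the amino acid transporters had medians of 0.11, -0.33 and -0.05.

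**Figure D5:**
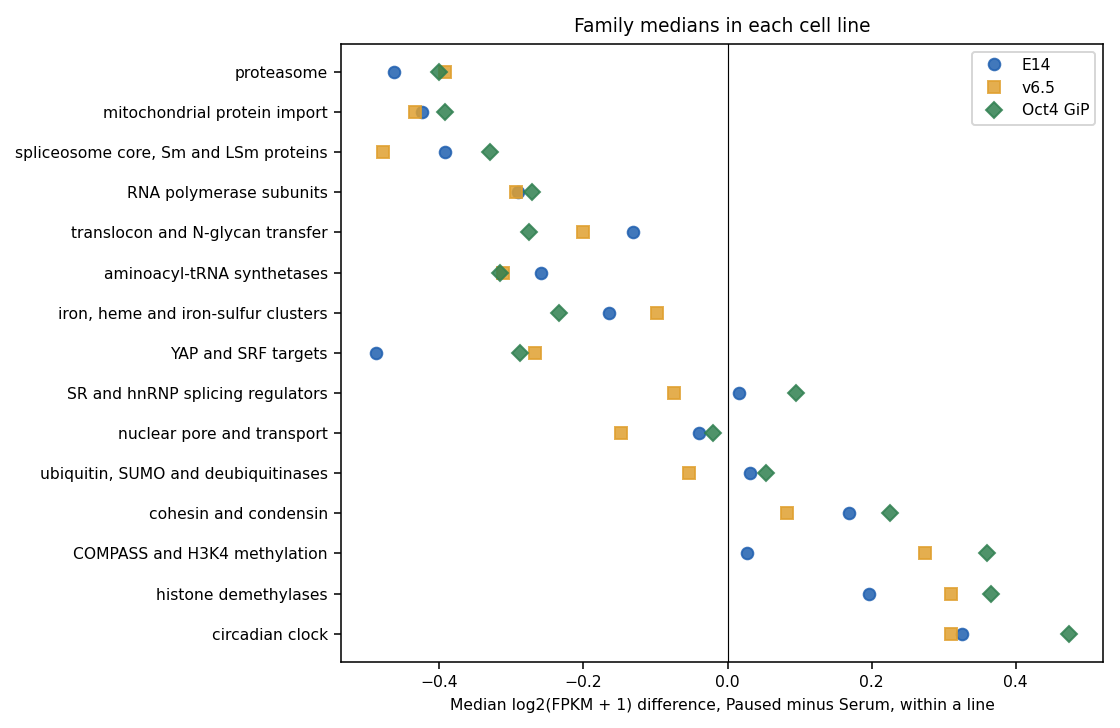
Median log2(FPKM + 1) difference, Paused minus Serum, of 15 families within each of the 3 lines, with 1 marker per line. The 3 lines lie close together and below 0 for the proteasome, import and polymerase families, above 0 for the clock and histone demethylases, and on both sides of 0 for SR and hnRNP regulators.

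Of the called genes named here, 76 were not called without the line in the fit: Aars, Agpat1, Apex2, Atm, Bok, Brms1, Chmp2a, Ckb, Cldn7, Clk1, Cltc, Col5a1, Cops8, Dbp, Ddb2, Ddr1, Ddx17, Dsp, Dusp14, Dync2h1, Eea1, Efna1, Etnk1, Farsa, Hdac5, Htra2, Ifitm3, Ikbkb, Ing1, Insr, Kars, Kdm1a, Kdm2a, Kdm4c, Kdm7a, Kmt2a, Krt18, Larp7, Lsm4, Mau2, Mkrn1, Ncapd2, Neil2, Notch2, Nr2c1, Nrarp, Paox, Pax6, Pmm1, Polr1b, Polr3gl, Prdx2, Rad51b, Sec16a, Slc1a5, Slc38a4, Slc40a1, Smg1, Sms, Snrpd2, Snx2, Snx3, Sox1, Spry2, Srf, Tdgf1, Tfap2c, Thy1, Tk2, Ung, Vps35, Vps36, Wdr35, Wwtr1, Yars and Zfp637. Those lost on leaving out libraries were counted above, and at 1 library per line and condition the lines themselves were not tested against each other.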

How the data were processed

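The 9 libraries, 1 per line and condition, came from purified mRNA (250 ng of input RNA, ERCC spike-in) and a strand-marking kit, per the labels. FPKM were deposited, made by Cuffnorm (version unstated) on mm10 per the submitters' processing notes. They also deposited a normalized signal, which per the values is FPKM times 1 constant per library (3.40 to 3.74 in Serum, 1.81 to 1.99 in Paused). The sources used here do not state aligner, annotation, strand setting or the origin of the constants. The files used hold no read counts, so depth is unknown and counting intervals could not be made. Overlapping and antisense genes are therefore uncertain.

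Of 29801 rows, 5644 carry no gene name (52.8% to 64.0% of summed FPKM) and were tested apart, and 113 identical repeats were left out, leaving 24044 named rows, 352 of them joined symbols. Tested were 12711 rows that 3 or more libraries listed at 1 FPKM or above. The model was limma-trend (R 4.3.3, limma 3.58.1) on log2(FPKM + 1), a pseudocount of 1, all 9 libraries in 1 fit (4 residual degrees of freedom), terms for condition and cell line, and Benjamini-Hochberg adjustment over all tested rows at 0.05, two-sided. The fit was tested on simulated data. The line pairs the libraries per the labels, and deviations from condition means correlated at 0.349, 0.401 and 0.338 within lines and at -0.243 to -0.075 between lines for Serum and Paused. Where a symbol has several rows, the row with the highest mean level stands for it in a family. Promoters and coordinates come from RefSeq and GENCODE M21 (GRCm38, the build of mm10), matched by symbol.

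Members and lists were chosen with earlier results of these data known. The rule for named genes took called genes of 1 sign in 3 lines and a mean of 5 FPKM or above: 15 per direction by moderated t, 8 per direction by FPKM difference, up to 4 per family, 4 by variation between lines, and symbol stems at both ends. Not all are reported here, and further called members are named to complete small counts of a family. The alternatives tried were the authors' columns, centring on the library median, pseudocount 0.1, no filter or FPKM of 5, no line block, 6 libraries alone, a length and GC correction (97.4% of rows had values), no trend, a robust fit and leaving out each library or line.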

Additional observations from a re-analysis of the deposited data

Results flagged for a closer look

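A few changes ran in opposite directions in different lines, which with 1 library per line and condition could not be tested. The median change of 25 amino acid transporters was 0.11 in E14 and -0.33 in v6.5, while Slc38a4 (-0.58, -1.51 and -1.07, with the lines in the order E14, then v6.5, then Oct4 GiP) and Slc1a5 (-0.71, -0.56 and -0.71), the members called, were lower in all 3 lines. Cacng8, a calcium channel subunit, changed by 1.41, -3.29 and 3.69 in that order, with 3.28, 83.1 and 8.96 FPKM in Serum and 10.4, 7.57 and 128 in Paused. Ddhd1, a phospholipase, changed by -0.26, 2.45 and -4.27, with 51, 22.5 and 93.2 FPKM in Serum and 42.4, 127 and 3.89 in Paused. These genes were named as those whose change varied most between lines, with Gfra4 (-5.81, 0.36 and 0.97) and Rabggtb (-1.49, 0.93 and -3.85).

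Genes of chromosome 11 had a median change of -0.17 in Oct4 GiP, -0.028 in E14 and 0.000194 in v6.5, over 1016 tested rows. The difference between lines was not tested.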

How the results depend on the processing

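Counts of rows called in Paused against Serum moved with the libraries used. In all, higher and lower, 9827, 48 and 9779 rows were called in the authors' columns and 1117, 466 and 651 without the filter on low values. Without the replicate block by line 626 rows were called higher (976 lower). Leaving out 1 library gave 12 to 3223 rows in all, 7 to 1369 higher and 4 to 1854 lower, and leaving out a line 4 to 7, 3 to 3 and 1 to 4, on fewer degrees of freedom. Centring (886 higher, 1542 lower), pseudocount 0.1 (963, 1333), FPKM of 5 (833, 1205), 6 libraries with replicate block (1128, 1591), the length and GC correction with replicate block (798, 1115), no trend (999, 1219) and the robust fit (993, 1368) stayed within 1.5 times. Of 308 called genes named here, 80 changed sign in the authors' columns and 0 in any other alternative. Of the 308, 232 stayed called without the replicate block and 246 with the length and GC correction. Nipbl, Ncapd3, Kmt2a, Setd1b, Kdm7a and Arid1a were among those not called with that correction.

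The following 83 genes, called or not, were higher in FPKM and had these log2 fold changes in the authors' columns: Aff4 -0.45, Ap3b1 -0.36, Arid1a -0.59, Arid4a -0.37, Arid4b -0.28, Atm -0.28, Atr -0.0054, Bcl7a -0.20, Cacng8 -0.25, Ccnt2 -0.42, Cdk19 -0.074, Chmp2a -0.59, Clk1 -0.49, Cltc -0.64, Col18a1 -0.13, Cry2 -0.31, Ddb2 -0.28, Ddx17 -0.52, Dnajb9 -0.14, Dync1h1 -0.30, Dync2h1 -0.14, Eea1 -0.29, Eef2 -0.41, Eif2ak2 -0.38, Etnk1 -0.037, Fam21 -0.23, Hdac5 -0.47, Ift88 -0.24, Igf2r -0.21, Ikbkb -0.36, Ing1 -0.31, Kdm2a -0.44, Kdm4c -0.27, Kdm5a -0.41, Kdm7a -0.0097, Kdsr -0.27, Kif13b -0.35, Klf13 -0.13, Klf9 -0.25, Kmt2a -0.39, Lrpprc -0.55, Mau2 -0.45, Med12 -0.39, Med13l -0.20, Mkrn1 -0.35, Msh3 -0.41, Ncapd3 -0.54, Nipbl -0.33, Notch2 -0.30, Nr1d1 -0.055, Nr2c1 -0.13, Nr2c2 -0.13, Nsd1 -0.38, Paox -0.49, Polr1a -0.67, Polr2a -0.62, Polr3b -0.50, Prkdc -0.085, Rad51b -0.25, Rbm5 -0.43, Rps27 -0.50, Rps4x -0.65, Sec16a -0.23, Setd1b -0.45, Sirt1 -0.12, Smc3 -0.59, Smc4 -0.48, Smg1 -0.39, Smg6 -0.50, Snrnp200 -0.54, Snx2 -0.52, Spred2 -0.35, Spry2 -0.49, Taf4a -0.18, Taf6 -0.57, Tbl1xr1 -0.41, Tdgf1 -0.30, Tk2 -0.42, Traf6 -0.41, Usp28 -0.052, Usp9x -0.14, Vps35 -0.44, Xrn1 -0.18. That follows from the constants, which shift every gene. Polr2b, not called, reached 0.0083 with the length and GC correction with replicate block. Across left-out libraries and lines, Cacng8 ran from -0.94 to 2.55, Ddhd1 from -2.27 to 1.09 and Gfra4 from -3.74 to 0.67. Depth is unknown and cannot be weighed.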

Other observations

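Rows without a gene name were fitted apart. Of 2938 that passed the same filter, limma called 0 higher and 1 lower in Paused, with 329 and 185 at an unadjusted p under 0.05 and a median change of 0.13. Among tested long intergenic noncoding RNAs, 15 of 132 were called higher and 5 lower, with a median of 0.12, and among 72 snoRNA rows 1 was higher and 5 lower, with a median of -0.09. Over all tested named rows 7.64% were higher and 10.5% lower. The snoRNA calls were thus below the background in both directions, and for the intergenic RNAs the lower calls were below it. Chromosome shares were even: 14% to 21.7% of tested rows of each of the 20 chromosomes with at least 100 tested rows were called.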
